A study of Caenorhabditis elegans with 15 samples.

Results

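The insulin receptor to daf-16 pathway was followed here in young adult Caenorhabditis elegans through its 8 core genes, daf-2, age-1, daf-18, pdk-1, akt-1, akt-2, sgk-1 and daf-16. They were chosen by name from a table of raw read counts that lists 46756 genes, and each name matched exactly 1 row. No measured value served as a criterion, but the choice was made with earlier results of these data known. All 8 had counts in every library, from 50 counts for pdk-1 in 1 library to 5818 for daf-18 in another, and all 8 passed the filter on low counts in every comparison.

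Insulin-like peptides bind the receptor DAF-2, which activates the phosphoinositide 3-kinase AGE-1, and the lipid that AGE-1 makes is removed again by the phosphatase DAF-18. The same lipid recruits the kinase PDK-1 and its substrates AKT-1 and AKT-2, SGK-1 is a related kinase that PDK-1 also acts on, and phosphorylation by AKT kinases holds the FOXO transcription factor DAF-16 in the cytoplasm. Loss of daf-2 or age-1 is known for dauer formation and long life, both of which need daf-16. The pathway is controlled largely by phosphorylation and by the place of DAF-16 in the cell, which mRNA levels do not measure.

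Total RNA of whole worms was sequenced after depletion of ribosomal RNA, with 3 libraries for each of 5 strains and about 20000 synchronized worms in a sample, raised at 20 °C and collected 48 h after L1. N2 is the wild type, and the other strains carry deletion alleles of nrx-1, the worm neurexin, or of nlg-1, the worm neuroligin, which are synaptic adhesion proteins. Both nrx-1 alleles, ok1649 and tm1961, affect the long alpha isoforms, nlg-1 (ok259) is described as a full knockout, and nlg-1 (tm474) carries a deletion inside the gene. N2, nrx-1 (ok1649) and nlg-1 (ok259) came from 1 repository and nrx-1 (tm1961) and nlg-1 (tm474) from another, and tm1961, ok259 and tm474 had not been backcrossed, so that an allele cannot be told apart from its strain background. No strain received a treatment. From here on the mutant strains are called by their alleles. The 3 libraries of a strain came from independent worm preparations, and p-values measure the spread between those.

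Libraries held 10152578 to 26211067 counts. Levels are given in TMM CPM, a gene's share of the library total after edgeR's TMM scaling for library composition. Noncoding genes took 4.03 to 5.50% of the counts in N2 but 15.6 to 30.3% in 8 of the 12 mutant libraries, that is in replicates 2 and 3 of ok1649 and ok259, all of tm1961 and replicate 2 of tm474. Replicate 1 of ok1649, ok259 and tm474 stood apart in another way, with summed levels of the 6 yolk genes vit-1 to vit-6 of 120208, 164271 and 147545 TMM CPM against 8836 to 19972 in N2 and 356 to 8268 in the other 9 mutant libraries. All markers of neurons, body wall muscle, intestine, hypodermis, germ line, sperm and oocytes that the table lists had counts in every library. Of the targeted genes, nrx-1 lay at 9.71 to 11.8 TMM CPM in N2, 6.59 to 8.81 in ok1649 and 4.02 to 7.90 in tm1961, while nlg-1 lay at 11.1 to 18.0 in N2, 8.15 to 10.2 in ok259 and 1.35 to 6.76 in tm474. Reads of both genes remained in their mutants, ok259 among them. Counts of a whole gene include exons outside a deletion, but the source of these reads was not tested. Low levels were not limited to a gene's own mutants. In the nrx-1 strains nlg-1 lay at 2.79 to 12.03 TMM CPM (ok1649) and 2.92 to 16.99 (tm1961), in each reaching below ok259. In the nlg-1 strains nrx-1 lay at 7.55 to 10.3 (ok259) and 6.08 to 11.6 (tm474).

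The genes lie apart, on 6 chromosomes (WBcel235, Ensembl 115). daf-2 (WBGene00000898) lies on chromosome III, minus strand, from 2994514 to 3040846, and daf-16 (WBGene00000912) on chromosome I, plus strand, from 10750498 to 10776703. They are the genes with the most annotated transcripts of the set, 7 and 11, and the counts pool the isoforms of each. age-1 (WBGene00000090) lies on chromosome II from 11519328 to 11527054 (minus), daf-18 (WBGene00000913) on IV from 420011 to 425177 (minus) and akt-1 (WBGene00000102) on V from 10248905 to 10252845 (plus). Some of them overlap other genes on the opposite strand. Exons of age-1 overlap B0334.10 by 192 bases, those of daf-16 overlap a noncoding RNA gene, H36N01.5, by 84 bases, and those of pdk-1 and akt-1 overlap F21E9.2 and rop-1 by 15 and 8 bases, and the strand setting of the counting is not given in the sources used here. pdk-1 (WBGene00003965, 1321344 to 1327986, plus), akt-2 (WBGene00000103, 14147700 to 14152070, plus) and sgk-1 (WBGene00004789, 16254842 to 16262122, minus) all lie on the X chromosome.

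In wild-type worms, mRNA of the transcription factor at the end of the pathway had the highest mean level per length, and that of pdk-1 was the least abundant. Divided by the length of the gene's merged exons, the N2 level of daf-16 was 43.6 ± 3.18 TMM CPM per kilobase (SD, n = 3) and that of akt-1 38.7 ± 13.5. daf-18 followed at 30.5 ± 17.6, sgk-1 at 19.9 ± 0.912, daf-2 at 16.0 ± 5.04 and age-1 at 10.5 ± 0.841, and akt-2 at 7.89 ± 2.13 and pdk-1 at 3.62 ± 0.366 came last. The ranges of daf-16, akt-1 and daf-18 overlapped, as did those of daf-18, sgk-1 and daf-2, so that the order within these is not set by 3 libraries. age-1 (9.84 to 11.5 per kilobase) lay between the lowest daf-2 (11.8) and the highest akt-2 (9.80) by small gaps, and pdk-1 (3.40 to 4.04) lay below every other gene in each N2 library. With the longest transcript as the length, daf-16 stood at 58.1 per kilobase and the other genes moved by less than 1 SD.

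The receptor gene daf-2 varied widely between libraries of one strain. In replicates 1, 2 and 3, the order used for all values here, its level was 122, 97.6 and 179 TMM CPM in N2, 191, 25.9 and 22.8 in ok1649 and 112, 44.6 and 33.9 in tm1961. In the neuroligin strains it was 275, 31.9 and 26.3 in ok259 and 141.5, 32.9 and 112 in tm474. No mutant strain lay wholly above or below N2, since 7 of the 12 mutant libraries lay below all N2 libraries and 2, replicate 1 of ok1649 and of ok259, lay above them.

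The lipid kinase gene age-1 was steady in N2 and separated the mutant libraries into high and low. Its level was 38.7, 40.2 and 45.01 TMM CPM in N2, 109, 11.5 and 10.4 in ok1649 and 20.8, 20.6 and 14.7 in tm1961, and 105, 15.9 and 12.58 in ok259 and 97.7, 20.1 and 34.1 in tm474. None of the 12 mutant libraries lay inside the N2 range, with 9 below it and 3 above it, the 3 being replicate 1 of ok1649, ok259 and tm474. Only tm1961 did not have such a high library, and there all 3 libraries were below all of N2.

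daf-18, whose phosphatase opposes AGE-1, had the widest range of the 8 genes, 27.3-fold between the lowest and the highest library. Its level was 54.3, 83.5 and 167 TMM CPM in N2, 267, 22.1 and 45.03 in ok1649 and 20.5, 77.7 and 59.2 in tm1961. In ok259 it was 422, 18.5 and 15.5, and in tm474 268, 49.8 and 44.5. The same 3 libraries as for age-1 were above all of N2, and no mutant strain lay wholly above or below it.

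pdk-1, the gene of the kinase upstream of AKT and SGK, followed age-1 closely at a lower level. Its level was 8.23, 8.26 and 9.78 TMM CPM in N2, 30.5, 3.04 and 2.97 in ok1649 and 6.57, 5.43 and 5.08 in tm1961. It was 32.3, 3.25 and 3.36 in ok259 and 33.9, 4.93 and 12.3 in tm474. All 3 libraries of tm1961 were below N2, whereas in the other strains replicate 1 was the highest and stood above every N2 library. Replicate 3 of tm474 also stood above every N2 library.

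The AKT kinase genes had smaller ranges, 3.50-fold for akt-1 and 3.43-fold for akt-2 over the 15 libraries. akt-1 lay at 72.5, 68.3 and 124 TMM CPM in N2, 120, 48.9 and 81.3 in ok1649 and 82.8, 81.9 and 81.8 in tm1961, with 171, 81.9 and 54.1 in ok259 and 116, 53.2 and 67.9 in tm474. Its 3 libraries of tm1961 were nearly equal and inside the N2 range. akt-2 lay at 19.7, 13.3 and 23.3 in N2, 12.3, 8.81 and 10.8 in ok1649 and 21.1, 10.4 and 13.8 in tm1961, with 30.2, 17.2 and 15.6 in ok259 and 13.1, 10.9 and 18.0 in tm474. Here ok1649 was the strain whose 3 libraries were all below N2, and its replicate 1, high in age-1, pdk-1 and daf-18, was not high in akt-2.

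sgk-1, the gene of the AKT-related kinase SGK-1, had the smallest range of the 8 genes, 3.14-fold over all 15 libraries. It was counted at 31.8, 31.5 and 34.2 TMM CPM in N2, 28.6, 18.9 and 14.4 in ok1649 and 22.8, 20.7 and 10.9 in tm1961, and at 33.8, 16.3 and 18.2 in ok259 and 17.4, 12.65 and 27.2 in tm474. The 3 N2 libraries were close to each other and 11 of the 12 mutant libraries were below them, the exception being replicate 1 of ok259, which fell inside the N2 range.

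daf-16 was likewise steady in N2. Its level was 173, 159 and 150.3 TMM CPM in N2, 263, 39.3 and 31.3 in ok1649 and 116, 50.8 and 39.9 in tm1961, and 267, 53.4 and 58.7 in ok259 and 191, 55.2 and 157 in tm474. Replicate 1 of ok1649, ok259 and tm474 was above N2, 8 of the other 9 mutant libraries were below it, and replicate 3 of tm474 was inside its range.

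**Figure D1:**
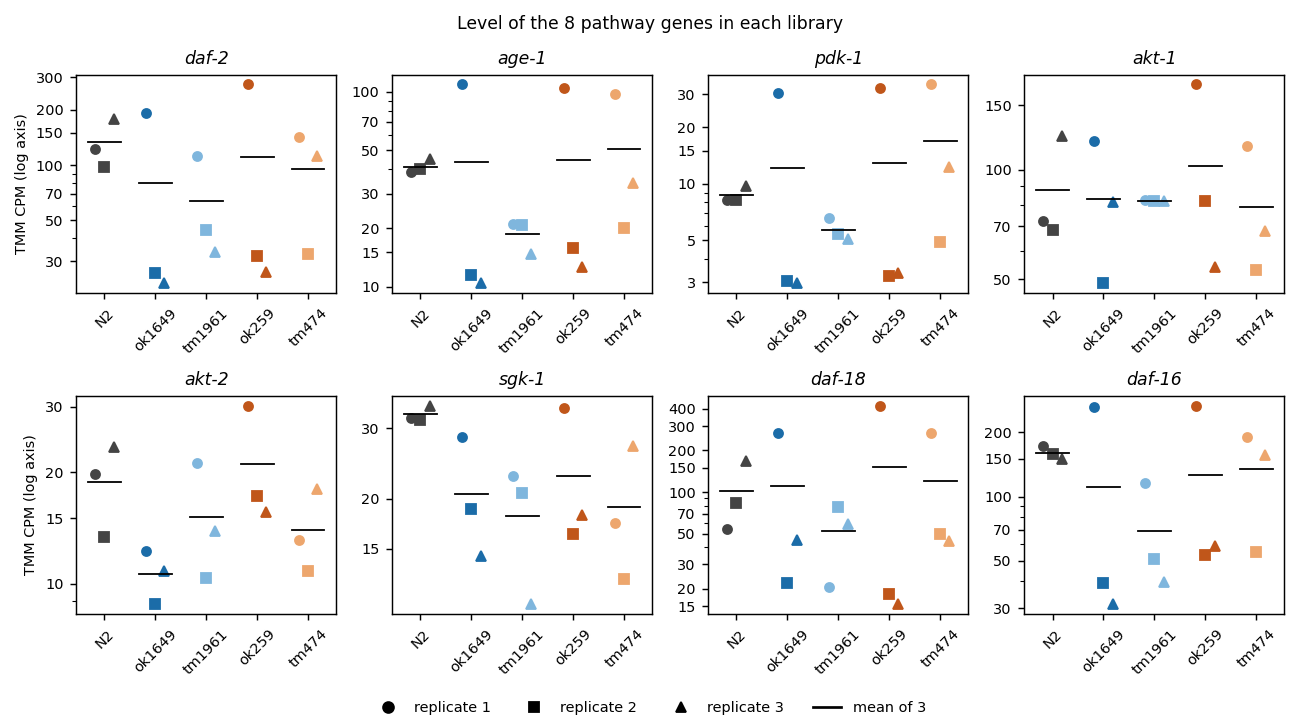
Level of each of the 8 genes in TMM CPM (vertical log axis, a different range in each panel) by strain, 1 point per library with the marker giving the replicate number, and a bar at the mean of 3. In age-1, pdk-1, daf-18 and daf-16 the first replicates of ok1649, ok259 and tm474 lie above N2 and most other mutant libraries below it, while the sgk-1 points of the mutants lie below N2 in 11 of 12 libraries.

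The comparison of each strain with N2 asks whether loss of neurexin or neuroligin came with other mRNA levels of these genes. In the edgeR quasi-likelihood fits over all genes none of the 8 passed the criteria, an adjusted p under 0.05 with a log2 fold change beyond 1 in size, in any of the 4 strains. Few genes of any kind did so at 3 libraries against 3, 0.0251% of those tested in ok1649 and 0% in each of tm1961, ok259 and tm474. At an unadjusted p below 0.05, 2 of the 8 genes were lower in tm1961 and 0 of 8 differed in the other strains, where 34.2% of all genes tested in tm1961, 18.1% in ok1649, 14.2% in ok259 and 8.41% in tm474 were under that limit. By direction, 2073 genes were higher and 815 lower of 15957 in ok1649, and 3026 and 2539 of 16268 in tm1961. They were 1025 and 1235 of 15905 in ok259 and 829 and 512 of 15947 in tm474.

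In tm1961 the estimates of all 8 genes were negative, with a median log2 fold change of -0.86 against 0.11 over all genes tested. The 2 genes under an unadjusted p of 0.05 were age-1, with a log2 fold change of -1.10 (SE 0.29, unadjusted p = 0.00568, adjusted p = 0.0753 in edgeR), and daf-16, with -1.19 (SE 0.44, unadjusted p = 0.0291, adjusted p = 0.112 in edgeR). All 3 libraries were below all 3 of N2 for age-1, pdk-1, sgk-1 and daf-16, that is for 4 of the 8 genes, where 20.0% of all genes showed this. On CPM of protein-coding counts it held for age-1 alone, 1 of the 8, and for 9.07% of all genes. The estimate of daf-2 was -1.02 (SE 0.51), that of daf-18 -0.91 (SE 0.59), that of sgk-1 -0.80 (SE 0.35) and that of pdk-1 -0.58 (SE 0.29). akt-2 stood at -0.28 (SE 0.39) and akt-1 at -0.06 (SE 0.32).

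In tm1961, deviations from the strain mean correlated with the N2 library of the same replicate number at 0.673, 0.182 and 0.633. Replicate 2 was as close to replicate 3 of N2, at 0.190. No label says that a number marks a shared batch, so a block on it rests on these data alone. With that block edgeR called 5127 of 16268 genes, against 0 without it. Among them age-1 and daf-16 were called lower, 2 of the 8 genes, where 15.5% of all genes were called lower. Their blocked log2 fold changes were -1.12 (SE 0.31, adjusted p = 0.0247) for age-1 and -1.34 (SE 0.35, adjusted p = 0.0190) for daf-16. DESeq2 on the same 6 libraries called age-1 lower at -1.14 (SE 0.35, adjusted p = 0.0153), 1 of the 8, where it called 9.53% of its genes lower. In the other strains DESeq2 called 0 of the 8, with no p given to age-1, pdk-1 and daf-16 in ok1649 and to pdk-1 in ok259. Over all genes it called 602 of 16125 in ok1649, 634 of 15816 in ok259 and 52 of 18109 in tm474. Over the 19 alternatives tried the adjusted p of age-1 ran from 0.0153 to 0.507 and that of daf-16 from 0.0156 to 0.559.

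The noncoding share was 15.6 to 26.4% in all 3 tm1961 libraries against 4.03 to 5.50% in N2. With that share as a covariate over all 15 libraries the estimates of age-1 and daf-16 turned to 0.96 and 0.60, and the median of the 8 genes to 0.79. Markers of the germ line moved with the strain as well. Their summed level was 397 to 584 TMM CPM over 7 genes in tm1961 against 1108 to 1328 in N2, and 6 of the 7 were lower at an unadjusted p below 0.05. At that limit 2539 of all 16268 genes tested were lower. The markers of oocytes and the eggshell summed to 192 to 799 against 1308 to 1971, over 8 genes. Intestinal markers summed to 498 to 1001 over 5 genes against 1506 to 2812, and hypodermal ones to 600 to 907 over 6 genes against 1483 to 1945. Sums for neurons (137 to 365 against 255 to 366), body wall muscle (3946 to 8363 against 5915.5 to 14210) and sperm (151 to 324 against 288 to 437) overlapped N2. In whole worms, fewer cells of a type and less RNA per cell cannot be told apart, and the part of these tissues in the levels of age-1 and daf-16 was not tested.

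In ok1649 and the neuroligin strains the errors were larger. The standard error of a log2 fold change was 0.90 for age-1 and 0.95 for daf-18 in ok1649, and 0.75 for age-1 and 1.18 for daf-18 in ok259, so that a change of the size estimated for age-1 in tm1961 was not detectable in ok1649 or ok259. The median of the 8 genes was -0.34 in ok1649, -0.18 in ok259 and -0.35 in tm474, against 0.16, 0.03 and 0.08 over all genes tested. In ok1649 the smallest p of the set was that of akt-2, with a log2 fold change of -0.90 (SE 0.43, unadjusted p = 0.0675, adjusted p = 0.309 in edgeR). akt-2 and sgk-1 were the genes whose 3 libraries lay below N2, 2 of 8 where 7.11% of all genes did, and on protein-coding counts sgk-1 alone did.

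In ok259 and tm474 sgk-1 had the smallest p of the set. Its log2 fold change was -0.79 (SE 0.38, unadjusted p = 0.0739, adjusted p = 0.394 in edgeR) in ok259 and -0.85 (SE 0.42, unadjusted p = 0.0718, adjusted p = 0.609 in edgeR) in tm474. In tm474 it was the only one of the 8 whose libraries all lay below N2, where 6.58% of all genes did, and in ok259 0 of the 8 did so, against 7.17%. pdk-1 had the largest positive estimate, 0.74 (SE 0.60) in tm474, and it overlapped N2.

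**Figure D2:**
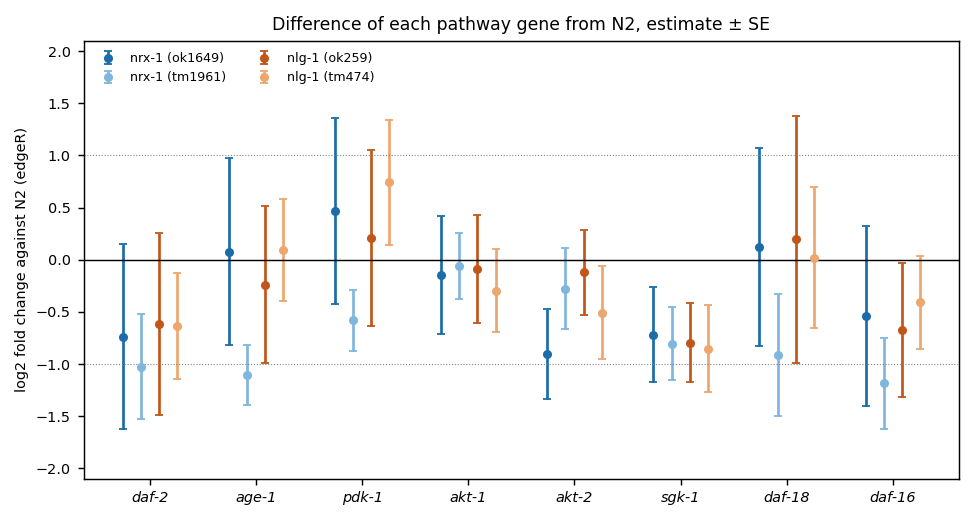
Log2 fold change against N2 (vertical axis) of each of the 8 genes in the 4 mutant strains, from edgeR fits of 3 libraries against 3. Points are estimates and bars are ± 1 SE, and dotted lines mark the criterion of 1. The bars of tm1961 are the shorter ones for age-1 and pdk-1, and sgk-1 lies between -0.72 and -0.85 in all 4 strains.

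The split between libraries decided what was called. Without replicate 1 of ok1649, edgeR called 7 of the 8 genes lower, all but akt-1, where 24.6% of all genes were called lower. The log2 fold changes were then -2.65 for daf-2, -2.38 for daf-16, -2.11 for age-1, -1.81 for daf-18, -1.74 for pdk-1, -1.16 for sgk-1 and -1.14 for akt-2. Without replicate 1 of ok259 it called 6 of the 8 lower, all but akt-1 and akt-2, where 22.9% of all genes were. Here daf-18 stood at -2.71, daf-2 at -2.32, age-1 at -1.67, daf-16 at -1.66, pdk-1 at -1.54 and sgk-1 at -1.05. Without replicate 1 of tm1961, daf-2 (-1.73), age-1 (-1.20) and daf-16 (-1.80) were called lower, 3 of the 8 where 17.6% of all genes were. In tm474, whose replicate 3 was poor in noncoding counts (4.99%), no member was called with any 1 library left out. There 0 of all genes tested were called in any of these fits.

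The libraries left out in the first and second of these fits were the yolk-rich ones. The noncoding share was 3.51 and 2.99% in them and 21.01 to 30.3% in the other libraries of ok1649 and ok259. The oocyte and eggshell markers summed to 7967 and 9714 TMM CPM in replicate 1 of ok1649 and ok259 and to 7855 in replicate 1 of tm474, against 1308 to 1971 in N2 and 92.7 to 1112 in the other 9 mutant libraries. Across these libraries pdk-1 stood at 30.5 to 33.9 TMM CPM in the yolk-rich 3 and at 2.97 to 12.3 in the other 9, and age-1 at 97.7 to 109 and 10.4 to 34.1. akt-2 (12.3 to 30.2 and 8.81 to 21.1) and sgk-1 (17.4 to 33.8 and 10.9 to 27.2) overlapped between the same libraries. The part of yolk, oocyte and noncoding RNA content in these levels was not tested, beyond the fit with the noncoding share, in which the median of the 8 genes was 0.20 in ok1649, 0.90 in ok259 and 0.13 in tm474.

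**Figure D3:**
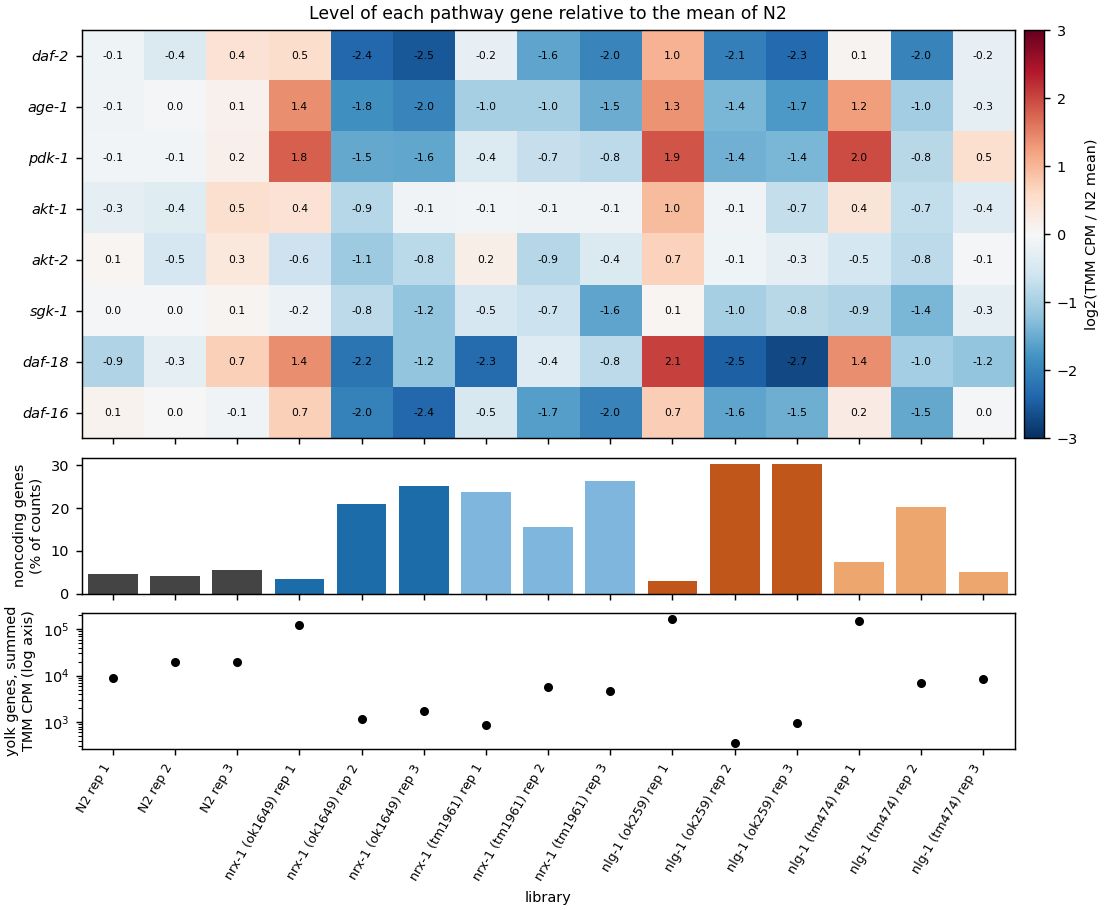
Top, log2 ratio of each gene's TMM CPM to its N2 mean (colour and printed value) in the 15 libraries. Middle, percent of counts on noncoding genes, with bars coloured by strain, and bottom, summed TMM CPM of the 6 yolk genes on a log axis. Replicate 1 of ok1649, ok259 and tm474, the yolk-rich libraries, are those in which age-1 and daf-18 are above N2. pdk-1 is above N2 in these and in replicate 3 of tm474. Libraries with over 15% noncoding counts are below the N2 mean in age-1, pdk-1, daf-18 and daf-16.

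Whether the alleles of a gene differed was tested directly as a contrast over all 15 libraries. Between tm1961 and ok1649 and between tm474 and ok259, edgeR called 0 of the 8 genes, where 0.0345% of all genes were called in either contrast, and 0 of the 8 had an unadjusted p below 0.05. DESeq2 on the same libraries called 0 of the 8 in each as well, with no p given to daf-16. Of 31472 genes it called 20 between the nrx-1 alleles and 15 between the nlg-1 alleles. The smallest unadjusted p was 0.215 for age-1 between the nrx-1 alleles, with a difference of -1.22 (SE 0.94), and 0.197 for akt-2 between the nlg-1 alleles, with -0.58 (SE 0.43). With that standard error a 2-fold difference in age-1 was not detectable, and age-1 of tm1961 is not shown to differ from that of ok1649. A test of any difference among the 5 strains passed for 0 of the 8 genes in edgeR and in DESeq2, with no unadjusted p below 0.05. Over all genes 0.0402% passed in edgeR and 116 of 19232 in DESeq2.

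sgk-1 had estimates of similar size in the 4 strains, -0.72, -0.80, -0.79 and -0.85 in ok1649, tm1961, ok259 and tm474, all of them measured against the same 3 N2 libraries. On CPM of all counts, without TMM, all 12 mutant libraries (10.7 to 26.7) were below the 3 of N2 (29.9 to 39.9), and 2.87% of all genes had 12 libraries below N2 on that scale. On CPM of protein-coding counts 10 of 12 were below N2, as were at least 10 libraries for 7.24% of all genes, and by TMM CPM 11 of 12, as were at least 11 libraries for 3.87% of all genes. In a contrast of the mean of the 4 mutant strains against N2, added after this was seen, sgk-1 stood at -0.69 (SE 0.35, unadjusted p = 0.0643, adjusted p = 0.281 in edgeR). That contrast called 0 of the 8 genes, where 0.0402% of all genes were called. Its estimate was -0.20 with the noncoding share as a covariate, and the adjusted p ran from 0.163 to 0.650 over the 19 alternatives.

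The 8 genes fell into steady and unsteady ones within strains. The standard deviation of log2 level within strains was 1.69 for daf-18, 1.31 for daf-2, 1.29 for pdk-1, 1.24 for age-1 and 1.10 for daf-16. It was 0.58 for akt-1, 0.48 for sgk-1 and 0.41 for akt-2, where the median of 17395 genes was 0.69. Accordingly 96.2% of genes had a smaller spread than daf-18 and 12.8% a smaller one than akt-2. In N2 alone the standard deviations of daf-16 (0.10), age-1 (0.11), pdk-1 (0.13) and sgk-1 (0.06) were under the median of 0.30, and those of daf-18 (0.81), akt-1 (0.47), daf-2 (0.44) and akt-2 (0.40) above it.

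Levels of some pairs went together across the 15 libraries, and the pairs did not follow the division into steady and unsteady genes. Pearson correlations of log2 levels were 0.97 for age-1 and pdk-1, 0.96 for daf-2 and daf-16 and 0.93 for age-1 and daf-16, and 0.24 for akt-2 and daf-18. They are descriptions over points that share preparation, composition and, in 3 libraries, high yolk RNA. Without those 3 libraries age-1 with pdk-1, daf-2 with daf-16 and age-1 with daf-16 were at 0.92, 0.94 and 0.92, and age-1 with daf-18 went from 0.87 to 0.65 and akt-1 with daf-18 from 0.82 to 0.56. daf-18, the most unsteady gene, was at 0.74 with daf-2 and 0.68 with daf-16, and at 0.51 and 0.36 without those libraries. The steady sgk-1 was at 0.80 with both daf-2 and daf-16, and at 0.85 and 0.88 without them. Other genes were still more alike. Of 17395 genes, F53H2.3 (0.991), R31.2 (0.983) and chat-1 (0.980) followed daf-2 most closely, and gck-1 (0.995), mdt-15 (0.994) and msi-1 (0.994) followed daf-16. No member was among the 10 genes most like another member.

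Ratios within a library, which no scaling alters, were compared for 3 pairs chosen after the levels were seen. Reads of akt-1 outnumbered those of akt-2 in every library, 3.68, 5.13 and 5.30 to 1 in N2 and 9.77, 5.55 and 7.53 to 1 in ok1649, the strain in which this ratio was above N2 in all 3 libraries. It was 3.93, 7.91 and 5.91 in tm1961, 5.66, 4.76 and 3.46 in ok259 and 8.85, 4.90 and 3.77 in tm474, overlapping N2 in each. The ratio of daf-16 to daf-2 stayed between 0.839 and 2.23 over the 15 libraries, although each gene alone ranged over 8.52-fold and 12.02-fold. That of daf-18 to age-1 ran from 0.983 to 4.31, with 1.40 to 3.72 in N2, and each mutant strain overlapped N2.

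The ligands of the receptor are secreted peptides, of which DAF-28, INS-4, INS-6 and INS-7 act as agonists and INS-1 and INS-18 as antagonists. None was called in any strain without the block, and in tm1961 the block called 1 of the 4 agonists lower, daf-28, where it called 15.5% of all genes lower. At an unadjusted p below 0.05, ins-7 was higher in ok1649, with a log2 fold change of 1.51 (SE 0.53), and in ok259, with 1.31 (SE 0.49), while daf-28 and ins-1 were lower in ok259, with -2.23 (SE 0.62) and -1.61 (SE 0.47). Their adjusted p in edgeR ran from 0.221 to 0.323. Among all genes tested, 2073 of 15957 were higher in ok1649, and 1025 of 15905 were higher and 1235 lower in ok259. The levels were low, 2.56 to 4.48 TMM CPM for ins-7 and 1.60 to 4.88 for daf-28 in N2. Without the block none of these ligands was under that limit in tm1961 or tm474, where 34.2% and 8.41% of all genes were.

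Adaptors and regulators around the pathway were read from a list of 12 genes, of which 10 passed the filter in each strain. At an unadjusted p below 0.05, 1 was higher and 3 lower in tm1961, 1 was lower in ok1649 and 0 did so in the neuroligin strains, and 0 were called without the block. Of all genes tested, 3026 of 16268 were higher and 2539 lower in tm1961, and 815 of 15957 were lower in ok1649. In tm1961 the block called 2 of the 10 lower, where it called 15.5% of all genes lower. The 2 smallest p in tm1961 were those of rict-1, the Rictor subunit of the TORC2 complex that acts upstream of SGK-1, at -1.28 (SE 0.34), and of asna-1, an ATPase that promotes insulin secretion, at 0.94 (SE 0.30). rict-1 was at 42.9 to 49.6 TMM CPM in N2 and 22.8, 20.0 and 11.7 in tm1961, with no overlap, and asna-1 at 56.4 to 62.5 and 83.2, 110.4 and 141. Of all genes, 20.0% lay wholly below N2 in tm1961 and 18.1% wholly above. The lower gene of ok1649 was ist-1, the worm's insulin receptor substrate, at -1.15 (SE 0.47).

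Partners and modifiers of DAF-16 were 14 genes, all tested. In tm1961 8 were lower and 1 was higher at an unadjusted p below 0.05, where 2539 and 3026 of all 16268 genes tested were. The median log2 fold change was -0.81 against 0.11 over all genes, and 0 were called by edgeR without the block. The block called 5 lower and 1 higher, where it called 15.5% of all genes lower and 16.0% higher. The smallest p were those of rle-1, an E3 ubiquitin ligase that acts on DAF-16, at -1.91 (SE 0.52), and of skn-1, the Nrf transcription factor of the oxidative stress response, at -1.11 (SE 0.34). In the other strains at most 1 of the 14 was under that limit, ftt-2, a 14-3-3 protein that binds phosphorylated DAF-16, at -1.58 (SE 0.55) in ok259. Dauer genes outside insulin signalling, 16 in the list, gave 2 higher and 3 lower in tm1961, 2 higher in ok1649, 1 higher and 1 lower in ok259 and 1 higher in tm474, with 0 called in any strain without the block. Over all genes tested, 2073 of 15957 were higher in ok1649 and 829 of 15947 in tm474. In ok259 1025 of 15905 were higher and 1235 lower. In tm1961 the block called 6 of the 16 lower and 1 higher, where it called 15.5% and 16.0% of all genes.

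Genes known to respond to DAF-16 were read in lists of 20 that rise with its activity, 18 of them tested, and 10 that fall, 8 tested in the nrx-1 strains and 9 in the nlg-1 strains. Of the genes that rise, 16 of 18 had negative estimates in ok1649, 10 in tm1961, 15 in ok259 and 12 in tm474, with medians of -0.70, -0.18, -0.68 and -0.40. At an unadjusted p below 0.05, 4, 2, 1 and 4 of them were lower and 0 were higher, and none was called without the block. Among all genes tested, 815 of 15957, 2539 of 16268, 1235 of 15905 and 512 of 15947 were lower at that limit. In tm1961 the block called 3 of the 18 lower and 0 higher, against 15.5% and 16.0% of all genes. dod-3 and sodh-1 had the 2 smallest p in both ok1649, at -3.36 (SE 0.65) and -3.0 (SE 0.85), and tm474, at -2.70 (SE 0.64) and -2.46 (SE 0.67). sodh-1, an alcohol dehydrogenase gene, was at 502 to 2632 TMM CPM in N2 and at 191, 115.2 and 288 in ok1649, and at 240, 364 and 237 in tm474, below N2 without overlap. Wholly below N2 were 7.11% of all genes in ok1649 and 6.58% in tm474.

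The genes that fall with DAF-16 activity had positive medians, 1.34 in ok1649, 1.35 in tm1961, 1.31 in ok259 and 1.19 in tm474, and 4, 3, 4 and 2 of them were higher at an unadjusted p below 0.05, with 0 lower and 0 called without the block. Among all genes tested, 2073 of 15957, 3026 of 16268, 1025 of 15905 and 829 of 15947 were higher at that limit. In tm1961 the block called 3 of the 8 higher, where it called 16.0% of all genes higher. dod-19 and gcy-18 had negative estimates in each of the mutant strains. dod-24, one of the downstream-of-daf-16 genes found in expression surveys, was at 111, 243 and 105 TMM CPM in N2, 638, 1546 and 1470 in ok1649, 963, 1297 and 1335 in ok259 and 949, 1169 and 539 in tm474. The mutant libraries of those 3 strains were all above N2, whereas in tm1961 (102, 1107 and 1473) replicate 1 was not. In ok1649, ok259 and tm474, 15.9, 16 and 8.58% of all genes lay wholly above N2. Summed over the list, N2 had 253 to 570 TMM CPM and 11 of the 12 mutant libraries 932 to 1853, and replicate 1 of tm1961 was at 239. In each of those 11 libraries dod-24 itself gave most of the sum, 1546 of 1853 in replicate 2 of ok1649. The yolk-rich libraries were among the 11, and so were libraries rich in noncoding RNA, whereas age-1 was above N2 in the first and below it in the second.

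**Figure D4:**
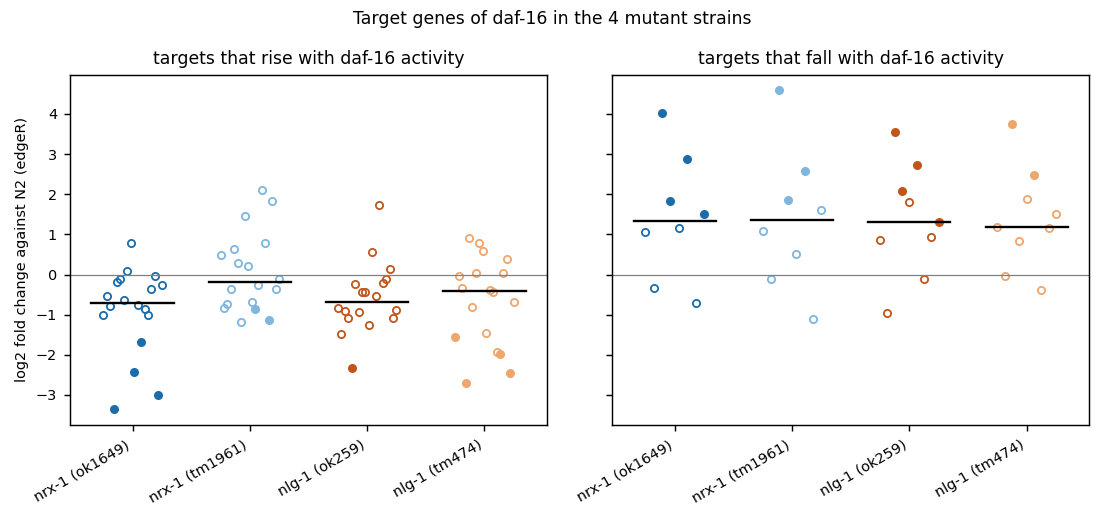
Log2 fold change against N2 (edgeR, vertical axis) of genes that rise (left) and fall (right) with DAF-16 activity, 1 point per gene tested in each of the 4 mutant strains. Filled points have an unadjusted p below 0.05 and the bar is the median of the list, -0.70 to -0.18 on the left and 1.19 to 1.35 on the right.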

How the data were processed

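Total RNA libraries of whole worms were made by the authors after depletion of rRNA, with a kit that keeps strand. Per the methods of the study, reads were demultiplexed with bcl2fastq 2.20, trimmed with Trimmomatic, aligned with STAR to the Ensembl genome (WBcel235 in the sample labels) and uniquely mapped reads on exons were counted with featureCounts. The authors deposited the raw counts of each gene, not normalized. The Ensembl release and the strand setting of the counting are not given in the sources used here.

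Strains and replicate numbers came from the sample labels. Positions, exon lengths and biotypes were taken from Ensembl 115, which holds 46581 of the 46756 gene identifiers. Each mutant strain was tested against N2 with edgeR 4.0.16 (R 4.3.3) on the 6 libraries, with TMM, filterByExpr and the legacy quasi-likelihood test without a block, and p-values were adjusted by Benjamini-Hochberg over all genes tested. The allele contrasts and the 5-strain test used all 15 libraries and 17395 genes. SE is the absolute log2 fold change over the square root of F. DESeq2 1.42.0, other scalings and filters, the replicate block, the noncoding share as a covariate and each library left out were alternatives. Depth limits the precision of pdk-1 most, at 50 to 445 counts a library. Only the edgeR fits of each strain against N2 were tried on simulated counts, which had less spread between libraries than these data. The other fits were not tried in this way.

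The 8 genes and the gene lists were chosen with earlier results of these data known. All 8 are named, of each other list at most the 2 genes with the smallest p in a comparison, and of likeness the 3 genes closest to daf-2 and daf-16. Beyond that rule, sod-3, mtl-1, dod-19 and gcy-18 are named because they went against the median of their list in some or all strains. ins-7 is in both the agonist list and the list of genes that fall with DAF-16 activity. No 2 libraries of a strain were copies (chi-square of at least 30.7 per degree of freedom over genes). Replicate numbers are shared by all strains. In nrx-1 (tm1961) the deviations from group means correlated with the N2 library of the same number at 0.673, 0.182 and 0.633, and the blocked fit is given for that strain, a pairing that rests on the data alone. In the other strains the same check failed for at least 1 number. Libraries of different numbers could correlate as strongly, since replicate 3 of nlg-1 (tm474) stood at 0.644 with replicate 1 of N2. No sequences of the genes were used here.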

Additional observations from a re-analysis of the deposited data

How the results depend on the processing

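The count of called genes among the 8 was 0 in each comparison with N2, and 2 alternatives besides leaving out libraries moved it, both in tm1961, where DESeq2 called 1 and the replicate block 2. With each library left out in turn it ran from 0 to 7 in ok1649, from 0 to 3 in tm1961 and from 0 to 6 in ok259. Over all genes the counts of calls were far less stable, since DESeq2 called 602, 3158, 634 and 52 in ok1649, tm1961, ok259 and tm474 against 4, 0, 0 and 0 in edgeR, and the block called 5127 in tm1961. The same-number correlations with N2 were not all positive in ok1649 (-0.18, 0.18 and 0.22), ok259 (-0.33, 0.05 and -0.41) and tm474 (-0.39, -0.14 and -0.67). In these strains the block called 0 of the 8, and 0 of all 15957, 15905 and 15947 genes tested.

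Estimates changed sign under several settings, and the cause was not tested. The noncoding covariate turned the most, among them 7 of the 8 in tm1961 and there the largest, those of daf-16, age-1, daf-2 and daf-18. The values that follow are log2 fold changes against N2. With the noncoding share as a covariate ok1649 gave 0.0045 for daf-2, 0.36 for akt-1 and 0.045 for daf-16, tm1961 gave 1.13 for daf-2, 0.96 for age-1, 1.71 for pdk-1, 0.62 for akt-1, 0.083 for akt-2, 1.49 for daf-18 and 0.60 for daf-16, ok259 gave 0.88 for daf-2, 1.40 for age-1, 0.75 for akt-1, 0.47 for akt-2, 0.10 for sgk-1 and 0.91 for daf-16, and tm474 gave 0.038 for daf-2, 0.060 for akt-1 and 0.20 for daf-16. With the replicate block ok1649 gave -1.02 for age-1, -0.62 for pdk-1 and -0.83 for daf-18, ok259 -0.64 for pdk-1 and -1.55 for daf-18, and tm474 -0.12 for age-1 and -0.27 for daf-18. On library totals age-1 and daf-18 were at -0.36 and -0.33 in ok1649 and -0.16 and -0.32 in tm474, akt-1 at 0.037 in tm1961 and daf-18 at -0.060 in ok259. With upper quartile scaling the same genes were at -0.35 and -0.26, -0.059 and -0.15, 0.028 and -0.0027. Without a filter age-1 was at -0.17 in ok1649 and daf-18 at -0.12 in ok1649 and -0.043 in tm474. On protein-coding genes age-1 and daf-18 were at -0.20 and -0.14 in ok1649 and akt-1 at 0.013 in tm1961, and without genes over 5% of a library the first of these pairs was at -0.18 and -0.13. RLE gave -0.00024 for age-1 in ok1649 and 0.056 and 0.0078 for akt-1 and akt-2 in ok259. In ok259 DESeq2 gave 0.045 for akt-1, the stricter filter 0.057 for akt-1 and 0.018 for akt-2, and the fit on all 15 libraries 0.11, 0.22 and 0.16 for age-1, akt-1 and akt-2.

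With a library left out the ranges that crossed 0 were in ok1649 -2.11 to 0.25 for age-1, -1.74 to 0.64 for pdk-1 and -1.81 to 0.37 for daf-18, and in tm1961 -0.23 to 0.24 for akt-1. In ok259 they were -1.67 to 0.19 for age-1, -1.54 to 0.66 for pdk-1, -0.51 to 0.34 for akt-1, -0.33 to 0.16 for akt-2 and -2.71 to 0.86 for daf-18, and in tm474 -0.59 to 0.42 for age-1, -0.010 to 1.14 for pdk-1, -0.52 to 0.016 for akt-1 and -1.09 to 0.57 for daf-18. The N2 level of daf-16 per kilobase was 43.6 by merged exons and 58.1 by the longest transcript. The median log2 fold change of all genes was 0.03 in ok259 and moved to 0.18 on library totals, and in tm1961 it moved from 0.11 to 0.25. With 3 preparations a strain and 3 mutant libraries rich in yolk RNA, the spread between libraries was wide, while the lowest count of any of the 8 genes was 50.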
